A study of Mus musculus with 7 samples.

Results

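Glutathione peroxidases, the glutathione-making ligase, thioredoxin reductase and their partner enzymes keep peroxides and reactive aldehydes in check, and 10 genes of this kind were followed across mouse embryonic stem (ES) cell-derived stomach tissue and native organs: Slc7a11, Gclc, Gclm, Gpx1, Gpx2, Gpx3, Txnrd1, Srxn1, Nqo1 and Hmox1. They were taken by name, as every probe whose accession maps to one of the 10 symbols, which gave 14 of 41174 probes and 10 of 17047 named genes. The 10 were chosen with knowledge drawn from these arrays, their signals in all 7 samples included, so the levels and their differences are given as a description, with no test.

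Total RNA was hybridized to 7 one-colour Agilent mouse arrays, with 1 array per group and no replicates. The day 46 tissue was derived from mouse ES cells and kept in a first medium until day 42. It then received Shh at 100 ng/mL and Bmp4 at 10 ng/mL for 4 days, in the same base medium with EGF at 50 ng/mL. The labels do not say outright whether FGF10, Wnt3a, Noggin and R-spondin1 were withdrawn at that step. Tissue of day 42 had been kept in that first medium. This was DMEM/F12 with N2, B27 and EGF at 50 ng/mL, supplemented with FGF10 at 100 ng/mL, Wnt3a, Noggin and R-spondin1 at 250 ng/mL. The ES cell line is not named in the labels, and each culture is a mixture of whatever cells had formed. The embryonic sample was the E9.5 stomach primordium of ICR mice, and adult intestine, lung, esophagus and stomach were isolated fresh from ICR mice. The number and age of the animals behind each array are not given in the labels.

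Levels are log2 of the processed signal minus the 75th percentile of the array, so 0 is the array's 75th percentile. Gene levels are compared for one probe across arrays, never between probes. Marker sums do combine probes: each is the log2 of the summed scaled signals, so the brightest marker weighs most. Each member probe had 1 spot per array, and the scanner software's own error was 0.14 to 0.18 log2 units for the 11 probes of the 9 genes other than Slc7a11. No biological error can be given with 1 array per group. As a yardstick, the differences that probes of one gene gave in the same comparison had an SD of 0.48 to 0.89 log2 units. Between 66.1% (day 42) and 82.7% (day 46) of all probes were well above background. The day 46, day 42 and E9.5 arrays each lay on a slide of their own while the 4 adult organs shared a slide, so that slide and sample cannot be told apart in any comparison that involves one of the first 3. Before any scaling, the 10 spike-in control probes read a median of 2.93 log2 units lower at day 46 than the median of the other arrays (-2.93). The day 46 array also had the highest 75th percentile of the 7 (10.751 in log2), so scaling widens this gap. Its part in the results was not tested. The labelled organs carried their markers: summed gastric markers read 7.81 at day 46 and 4.76 at day 42, against 12.24 in adult stomach, and all 8 were above background at day 46. In the E9.5 primordium 4 of the 8 gastric markers (Gkn1, Gkn2, Pgc and Cblif) were not above background. Summed lung surfactant and secretory markers read 6.33 in esophagus and 3.03 in stomach, beside 10.79 in lung.

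Glutathione is built from cystine, which the exchanger Slc7a11 brings into the cell, and the first and limiting step joins cysteine to glutamate through the catalytic subunit Gclc and the modifier subunit Gclm. Glutathione peroxidases then use it to reduce peroxides, while thioredoxin reductase and sulfiredoxin serve the parallel thioredoxin and peroxiredoxin route. Many of these genes are known targets of the transcription factor Nrf2 (Nfe2l2), which Keap1 holds back and which binds antioxidant response elements together with small Maf proteins. Slc7a11 is also a known target of Atf4, the factor of the amino acid response. In the mouse gut, Gpx2 is known as the epithelial glutathione peroxidase.

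The sequence just before the start site is shown for 4 genes: Gpx2 and Nqo1, whose levels spread most over the arrays, Srxn1, whose 3 probes gave one pattern, and Slc7a11, whose 3 probes did not. Each is the 250 bases before the start of the RefSeq transcript in GRCm38.p6, 5′ to 3′ on the gene's own strand. The Gpx2 window lies at chr12:76795555-76795804 on the minus strand, that of Nqo1 at chr8:107403206-107403455 on the minus strand, that of Srxn1 at chr2:152105274-152105523 on the plus strand, and that of Slc7a11 at chr3:50443614-50443863 on the minus strand. Capitals mark matches, on either strand, to TGAGTCA (the AP-1 site), TGATGNAA (the core of the amino acid response element) or TGACNNNGC (the core of the antioxidant response element).
Gpx2: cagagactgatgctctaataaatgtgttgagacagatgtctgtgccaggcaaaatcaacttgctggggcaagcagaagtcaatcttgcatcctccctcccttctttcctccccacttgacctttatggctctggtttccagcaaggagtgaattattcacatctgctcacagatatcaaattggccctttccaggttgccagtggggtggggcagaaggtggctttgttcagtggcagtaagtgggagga
Nqo1: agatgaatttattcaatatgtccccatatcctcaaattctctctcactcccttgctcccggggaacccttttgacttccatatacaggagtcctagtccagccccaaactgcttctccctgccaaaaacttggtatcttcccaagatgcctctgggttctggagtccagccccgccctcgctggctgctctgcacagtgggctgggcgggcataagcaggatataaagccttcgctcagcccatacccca
Srxn1: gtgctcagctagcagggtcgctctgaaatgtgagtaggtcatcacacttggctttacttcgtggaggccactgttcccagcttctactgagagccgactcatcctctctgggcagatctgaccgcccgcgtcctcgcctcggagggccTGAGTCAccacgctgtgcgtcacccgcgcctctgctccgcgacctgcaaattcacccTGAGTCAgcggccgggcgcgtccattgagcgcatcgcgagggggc
Slc7a11: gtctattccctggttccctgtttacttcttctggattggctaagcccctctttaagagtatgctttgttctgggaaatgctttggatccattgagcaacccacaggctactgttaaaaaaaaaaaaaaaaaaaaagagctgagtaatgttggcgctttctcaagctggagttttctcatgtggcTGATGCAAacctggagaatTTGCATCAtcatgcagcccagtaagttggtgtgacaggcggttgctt
The Srxn1 window held 2 matches to the AP-1 letters, at -102 to -96 and at -45 to -39 from the start site. The match at -45 to -39 is followed by gc, so it differs from TGACNNNGC only by G in place of the C after TGA. Cores with G there were not searched. The Slc7a11 window held 2 matches to the amino acid response core, at -66 to -59 and, on the opposite strand, at -47 to -40. The Gpx2 and Nqo1 windows held none of the 3 motifs, which says only that these letters are not in these windows. RefSeq windows were at hand for 8 of the 10 genes, and among them a Gclm and a Txnrd1 window also held TGACNNNGC. Of 32851 mouse windows of the same length, 10.2% held TGACNNNGC, 4.46% TGAGTCA and 3.45% TGATGNAA, and an AP-1 site followed by the right bases can also match TGACNNNGC.

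Across the 7 arrays the 10 genes ranged from steady to widely spread. All 11 probes of the 9 genes other than Slc7a11 were well above background on every array. The distance between a gene's highest and lowest array was 8.96 log2 units for Gpx2, 7.72 for Nqo1, 5.03 for Hmox1, 4.03 for Srxn1, 3.77 for Gclm and 3.25 for Gpx3. It was 2.08 for Gclc, 2.08 for Txnrd1 and 1.29 for Gpx1. Over the 11798 genes above background on every array the median distance was 2.41, and 98.4% of them had a smaller distance than Gpx2, 96.9% than Nqo1 and 12.7% than Gpx1. Between these lay Hmox1 (86.6%), Srxn1 (78.5%), Gclm (75.7%), Gpx3 (68.5%), Gclc (39.8%) and Txnrd1 (39.6%).

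**Figure D1:**
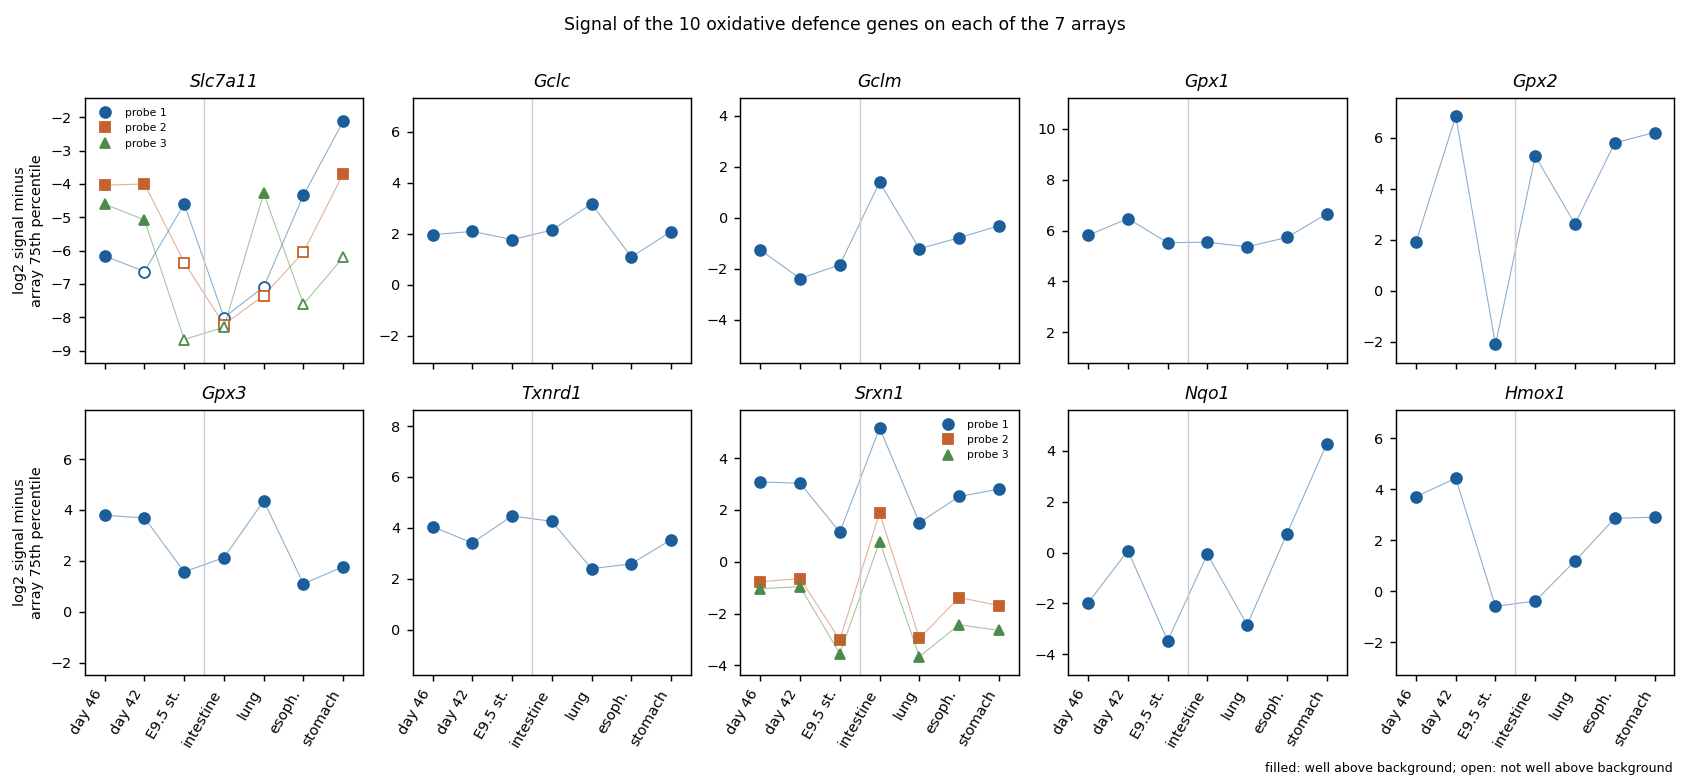
Level of each of the 10 genes on the 7 arrays, as log2 signal minus the 75th percentile of the array, with 1 point per probe and array and each panel's vertical axis placed on its own gene. Filled points are well above background and open points are not; the vertical line parts the day 46, day 42 and E9.5 arrays from the adult organs. Gpx2 spans 8.96 log2 units and Gpx1 spans 1.29, and the 3 probes of Slc7a11 follow different courses.

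The cystine importer Slc7a11 was often not well above background, and its 3 probes disagreed. The first probe read -6.16 at day 46, -6.63 at day 42, -4.60 at E9.5, -8.01 in intestine, -7.09 in lung, -4.34 in esophagus and -2.12 in stomach, of which the day 42, intestine and lung readings were not well above background. The second read -4.04 at day 46, -4.00 at day 42 and -3.69 in stomach, and was not well above background elsewhere. The third was above background in lung (-4.28), at day 46 (-4.61) and at day 42 (-5.08), and not in adult stomach (-6.20). By the first probe day 46 tissue lay 16.4-fold below adult stomach, by the second 1.27-fold below, and by the third at least 3.02-fold above it. Day 46 and day 42 were close by both probes above background on the pair of arrays: the second differed by -0.04 and the third by 0.47 log2 units. They split again between day 42 and E9.5, where the first probe was at least 1.95-fold lower at day 42 and the second at least 5.14-fold higher. The first probe, which is the brightest on average, stands for the gene in the counts below, and these comparisons give it no common direction. Against adult stomach, the probes that could be measured at E9.5 (-2.48 and at least 6.38-fold), in intestine (at least 16.6-fold and 5.61-fold) and in esophagus (-2.22 and at least 5.12-fold) were all lower.

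Gclc, which carries the catalytic site of glutamate-cysteine ligase, stayed level in most samples. It read 1.96 at day 46, 2.09 at day 42, 1.77 at E9.5, 2.14 in intestine, 3.17 in lung, 1.09 in esophagus and 2.08 in stomach. Day 46, day 42, E9.5, intestine and stomach lay within 0.37 log2 units of each other, less than the SD between probes in any comparison. Lung stood 2.13-fold above stomach and esophagus 1.99-fold below it.

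Gclm, which lowers the concentration of glutamate the ligase needs and eases its inhibition by glutathione, moved on its own course. It read -1.27 at day 46, -2.39 at day 42, -1.85 at E9.5, 1.39 in intestine, -1.22 in lung, -0.79 in esophagus and -0.32 in stomach. Intestine was the highest sample, 3.26-fold above stomach, and the day 42 tissue the lowest, 4.2-fold below stomach. Day 46 tissue was 2.17-fold above day 42 tissue (1.12 log2 units), which falls under 2-fold with median centring (0.72), with quantile normalization (0.89) and with another background correction (0.89). So the 2 subunits of the same enzyme did not keep one ratio: between day 42 tissue and adult stomach Gclc differed by 0.01 and Gclm by -2.07 log2 units.

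Gpx1, the ubiquitous cytosolic glutathione peroxidase, was the steadiest gene of the 10. It read 5.81 at day 46, 6.47 at day 42, 5.52 at E9.5, 5.54 in intestine, 5.36 in lung, 5.73 in esophagus and 6.65 in stomach. The day 42 tissue and adult stomach were its 2 highest samples and differed by -0.18 log2 units, below the SD between probes of 0.87. The other 5 arrays lay within 0.45 log2 units.

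Gpx2, the peroxidase of gut epithelium, had the widest spread. It read 1.92 at day 46, 6.85 at day 42, -2.11 at E9.5, 5.29 in intestine, 2.62 in lung, 5.81 in esophagus and 6.21 in stomach. Day 42 was thus the highest array of all, next to adult stomach, with a difference of 0.64 log2 units, below the SD between probes of 0.87, that becomes 1.11 with median centring. At day 46 it was 30.4-fold lower than at day 42 (-4.93), the 4th lowest difference among 15453 genes, and 19.5-fold lower than in adult stomach. The E9.5 primordium was 318-fold below adult stomach and 497-fold below the day 42 tissue. In bulk tissue fewer cells that express a gene and less RNA per cell cannot be told apart. Secretory cell markers split in the same comparison: at day 46 Agr2 read -0.54 and Spdef -1.30, against 6.78 and 2.81 at day 42, while Clca1 and Zg16, the other two goblet markers on the array, were higher at day 46, and the 4 summed to 7.94 at day 46 and 6.87 at day 42. Their part in the Gpx2 difference was not tested. Summed squamous markers were 3.55 at day 46 and 1.72 at day 42, against 10.02 in esophagus and 9.81 in adult stomach, and their part in the Gpx2 levels was not tested either.

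Gpx3, the secreted glutathione peroxidase of plasma, which kidney and fat are known to supply, was high in lung and in both ES-derived tissues. It read 3.79 at day 46, 3.69 at day 42, 1.57 at E9.5, 2.13 in intestine, 4.36 in lung, 1.1 in esophagus and 1.78 in stomach. These 3 samples were followed at a distance by intestine. Day 46 tissue was 4.03-fold and day 42 tissue 3.75-fold above adult stomach, and the 2 culture times differed by 0.10 log2 units. Markers of kidney tubule and fat (Slc34a1, Lrp2, Adipoq and Plin1) summed to -3.62 at day 46, -2.72 at day 42 and -0.88 at E9.5. In the adult organs they summed to 4.71 in intestine, 2.40 in lung, 2.53 in esophagus and -1.75 in stomach. Their part in the Gpx3 levels was not tested.

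Txnrd1, the cytosolic selenoprotein that keeps thioredoxin reduced, ranged over 2.08 log2 units with the embryo on top. It read 4.05 at day 46, 3.41 at day 42, 4.47 at E9.5, 4.26 in intestine, 2.40 in lung, 2.59 in esophagus and 3.54 in stomach. It was the only one of the 9 genes other than Slc7a11 whose level at E9.5 was the highest, 1.91-fold above adult stomach. The lead of E9.5 over intestine and day 46 was smaller than the lowest SD between probes in any comparison (0.48). Day 42 tissue was 2.09-fold below the E9.5 primordium, a difference of -1.07 that becomes -0.91 with the other background correction.

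Srxn1, which restores overoxidized peroxiredoxins, was highest in intestine by all 3 probes. Its brightest probe read 3.08 at day 46, 3.03 at day 42, 1.14 at E9.5, 5.16 in intestine, 1.51 in lung, 2.52 in esophagus and 2.80 in stomach. Intestine stood 5.13-fold above stomach by this probe, and 12-fold and 10.8-fold by the others. All 3 probes also put the 2 culture times within 0.11 log2 units and the E9.5 primordium and lung below the other 5 arrays. They differ in size, and day 42 tissue exceeded adult stomach by 0.22 log2 units by the brightest probe, and by 1.03 and 1.69 by the others. Esophagus minus stomach was -0.28 by the brightest probe and 0.31 and 0.22 by the others, all below the SD between probes of 0.48. Its window printed above is the one with both AP-1 matches.

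Nqo1, the quinone reductase often read as a gauge of Nrf2 activity, was highest in adult stomach by a wide margin. It read -1.97 at day 46, 0.07 at day 42, -3.46 at E9.5, -0.07 in intestine, -2.84 in lung, 0.74 in esophagus and 4.26 in stomach. The other 6 samples lay between 11.5-fold and 211-fold below stomach. The day 42 tissue lay 18.3-fold below it and close to intestine, and the day 46 tissue 75.3-fold below it. Day 46 was 4.11-fold lower than day 42 (-2.04 against an SD between probes of 0.51), the 111th lowest difference of 15453 genes. The E9.5 primordium, 211-fold below adult stomach, was the lowest sample.

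Hmox1, which opens the haem ring to give biliverdin, iron and carbon monoxide, was highest in the cultures. It read 3.71 at day 46, 4.43 at day 42, -0.60 at E9.5, -0.39 in intestine, 1.18 in lung, 2.86 in esophagus and 2.90 in stomach. Day 42 tissue was 2.89-fold above adult stomach and 32.7-fold above the E9.5 primordium, and day 46 lay 1.65-fold below day 42. Day 46 tissue exceeded adult stomach by 0.81 log2 units, below the SD between probes of 0.85. Intestine, with the second lowest level, was 9.81-fold below stomach. Macrophages are a known site of Hmox1, and 5 macrophage markers (Csf1r, Marco, Adgre1, Cd14 and Lyz2) summed to 8.22 at day 46, 8.62 at day 42, -2.02 at E9.5, 6.48 in intestine, 8.84 in lung, 7.35 in esophagus and 5.63 in stomach. Both ES-derived arrays were thus high and the E9.5 array low in this sum and in Hmox1, and lung held the highest sum with a middling Hmox1. Gene by gene, 3 of the 5 markers were at least 2-fold above stomach in lung (Csf1r, Marco and Lyz2). At day 42 it was 5 and at day 46 it was 4. The part of macrophages in the Hmox1 levels was not tested. Erythroid markers summed to -2.23 at day 46, -3.18 at day 42 and 7.98 at E9.5. Among the adult organs they summed to 2.52 in intestine, 5.06 in lung, 4.43 in esophagus and 0.13 in stomach. Their part in the Hmox1 levels was not tested either.

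Between day 46 and day 42, the step in which Shh and Bmp4 were given, 1 of the 10 genes lay at least 2-fold higher (Gclm), where 9.0% of 15453 named genes did, and 2 lay at least 2-fold lower (Gpx2 and Nqo1), where 6.47% did. The median of the members was -0.06 and that of all genes 0.00. Since the genes were chosen with these values known, the count is a description. The scaling matters for small differences: with each array centred on its median in place of the 75th percentile, the middle gene of all lies at -0.39. Of the genes past 2-fold, 17.6% are then higher at day 46, beside 58.2% with the 75th percentile and 41.2% with quantile normalization. Under median centring Gpx1 (-1.06) and Hmox1 (-1.12) also pass 2-fold, and Gclm does not.

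Among related genes, the glutathione transferases, which couple glutathione to electrophiles, went both ways at this step. Of 24 measured, 5 passed 2-fold upward at day 46 and 6 downward, with a median of -0.57. Gsta1 read 6.05 at day 46, against 2.91 at day 42, and Gsta2 4.76 against 1.78. These 2 are close copies whose probes may read each other's RNA, so they count as one observation at most. Gsta3 lay 2.76-fold lower. In glutathione synthesis, recycling and breakdown, none of 14 was at least 2-fold higher and 5 were lower (Ggt6, Ggt1, Ggt5, Dpep1 and Cbs), with a median of -0.50. Of those, Ggt1, Ggt5 and Ggt6 belong to the gamma-glutamyl transferase family, which cleaves glutathione outside the cell, Dpep1 is a dipeptidase of the same breakdown route, and Cbs feeds homocysteine toward cysteine. Ggt6 was 5.27-fold and Ggt1 4.34-fold lower. Of 15 thioredoxin and glutaredoxin genes 1 was lower (Sesn1), of 14 other peroxidases, peroxiredoxins, dismutases and catalase 1 was lower (Sod3, 3.09-fold), and of 8 NADPH suppliers none passed.

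The regulators of Nrf2 gave a mixed picture at the same step. Nfe2l2 itself read 3.64 at day 46, against 4.65 at day 42, a 2-fold lower level, and Keap1 2.23 against 2.91. Bach1, a repressor that competes for the same elements, was 2.85-fold lower at day 46 and the small Maf gene Mafk 2.11-fold higher. Mafg (0.19), Maff (0.46), Nfe2l1 (0.07), Nfe2l3 (0.46), Cul3 (0.48), Rbx1 (-0.66) and Sqstm1 (-0.51) stayed within 2-fold. Of 18 other reported Nrf2 targets, 1 was higher (the exporter Abcc3, 2.44-fold) and 2 lower (Ptgr1, 2.09-fold, and Slc48a1, 2.07-fold), with a median of -0.24.

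**Figure D2:**
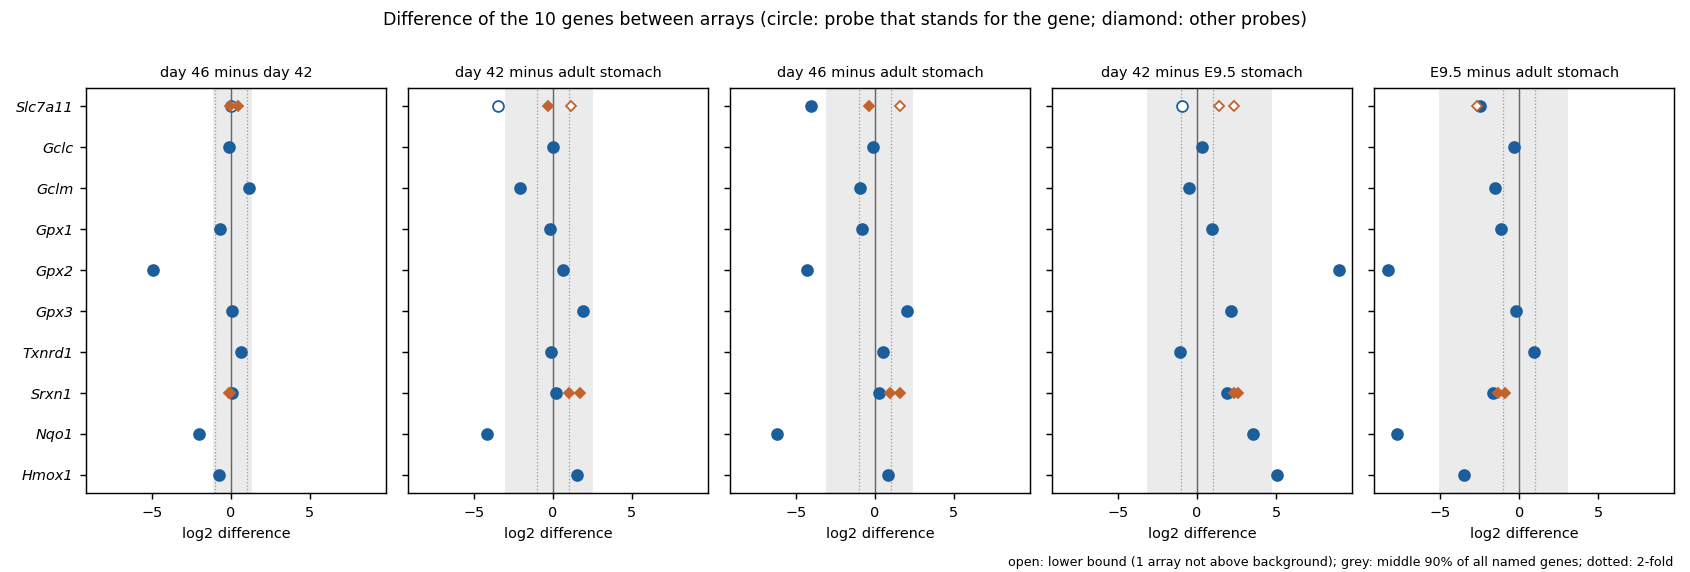
Log2 difference of each of the 10 genes in 5 comparisons, on a common axis, with circles for the probe that stands for the gene and diamonds for its other probes; open symbols are lower bounds because one array was not above background. The grey band holds the middle 90% of all named genes and the dotted lines mark 2-fold. Gpx2 (-4.93) and Nqo1 (-2.04) lie outside the band between day 46 and day 42, and Nqo1 lies far to the left in each comparison with adult stomach.

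Against adult stomach, the organ the cultures are labelled for, the day 42 tissue had 2 of the 10 genes at least 2-fold higher (Gpx3 and Hmox1) and 3 lower (Nqo1, Gclm and, by its first probe, Slc7a11), where 20.2% and 22.6% of 14819 named genes were. The day 46 tissue had 1 higher (Gpx3) and 3 lower (Nqo1, Gpx2 and, by its first probe, Slc7a11), where 19.4% and 22.1% of 15727 named genes were. Both comparisons use the same stomach array. Srxn1 stayed under 2-fold by its brightest probe (0.22 at day 42 and 0.28 at day 46). Its other probes gave 1.03 and 1.69 at day 42, and 0.92 and 1.61 at day 46. Gpx1, Gclc and Txnrd1 lay within 0.18 log2 units of adult stomach at day 42. With median centring the middle gene of all lies at 0.43 between day 42 and stomach, and 67.8% of the genes past 2-fold are higher at day 42, beside 47.1%. Under that scaling Nqo1 lay at -3.73, Gclm at -1.60 and Gpx3 at 2.38, and Gpx2 (1.11) passes 2-fold as a 3rd higher gene. Hmox1 at day 46 (0.81) passes it with the other background correction (1.12). Of the Nrf2 regulators, the small Maf gene Maff was 13.1-fold higher at day 42 than in stomach and 18-fold higher at day 46, while Nfe2l2 differed by -0.50 at day 42 and -1.51 at day 46. Amino acid response genes, the Atf4 list, were at least 2-fold higher for 8 of 15 at day 42, with a median of 1.29 and Fgf21 (22.1-fold), Trib3 (6.7-fold) and Ddit3 (6.64-fold) in front. Slc7a11, known as a target of the same factor, showed no common direction over its probes in that comparison. Glutathione transferases were at least 2-fold lower than in stomach for 10 of 24 at day 42 and for 16 of 24 at day 46, with Mgst3 23.5-fold and 11.1-fold lower.

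The E9.5 primordium set against adult stomach had none of the 10 genes at least 2-fold higher, where 27.3% of 15090 named genes were, and 7 lower, where 29.8% were. The 7 were Gpx2, Nqo1, Hmox1, Slc7a11 (-2.48), Srxn1 (-1.67), Gclm (-1.53) and Gpx1 (-1.13), and the median of the 10 was -1.60 beside -0.03 for all genes. Gclc (-0.31), Gpx3 (-0.21) and Txnrd1 (0.94) stayed within 2-fold. With median centring the middle gene of all lies at 0.54, and 63.5% of those past 2-fold are higher at E9.5, beside 47.8%. Gclm (-0.96) and Gpx1 (-0.56) then fall under 2-fold, Gpx1 also with quantile normalization (-0.94), and Txnrd1 (1.51) passes it. The wider lists lay on the same side: 20 of 24 glutathione transferases, 16 of 17 other reported Nrf2 targets and 11 of 14 genes of glutathione synthesis, recycling and breakdown were at least 2-fold lower at E9.5. Gsta1 was at least 15500-fold lower and Mgst2 1760-fold lower. Not every antioxidant list did so, since the other peroxidases, peroxiredoxins, dismutases and catalase gave 3 higher and 3 lower of 14. Nfe2l2 read 1.66 at E9.5, against 5.15 in stomach, and Keap1 2.62 against 2.51.

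The day 42 tissue set against the E9.5 primordium showed 5 of the 10 genes at least 2-fold higher (Gpx2, Hmox1, Nqo1, Gpx3 and Srxn1), where 28.1% of 14695 named genes were, and 1 lower (Txnrd1), where 25.9% were. The median of the 10 was 1.42, beside -0.03 for all genes. Gpx2 had the 66th highest difference of all. Hmox1 stood 32.7-fold, Nqo1 11.5-fold, Gpx3 4.34-fold and Srxn1 3.71-fold above the primordium. In the same comparison 16 of 18 other reported Nrf2 targets were at least 2-fold higher and none was lower (Abcc3 121-fold, Osgin1 95.5-fold), as were 17 of 24 glutathione transferases, with 2 lower, and 9 of 14 genes of glutathione synthesis, recycling and breakdown, with 1 lower. Of 11 Nrf2 regulators 3 were higher at day 42 (Nfe2l2 7.9-fold, Maff 30.7-fold and Sqstm1 6.49-fold). Bach1 was 2.59-fold and Cul3 2.19-fold lower, and the median of the 11 was 0.29. Not every list rose: the other peroxidases, peroxiredoxins, dismutases and catalase gave 3 higher and 3 lower of 14. Thioredoxin and glutaredoxin genes gave 2 higher and 4 lower of 15, and NADPH suppliers 2 and 2 of 8. This comparison and the preceding one share the E9.5 array.

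**Figure D3:**
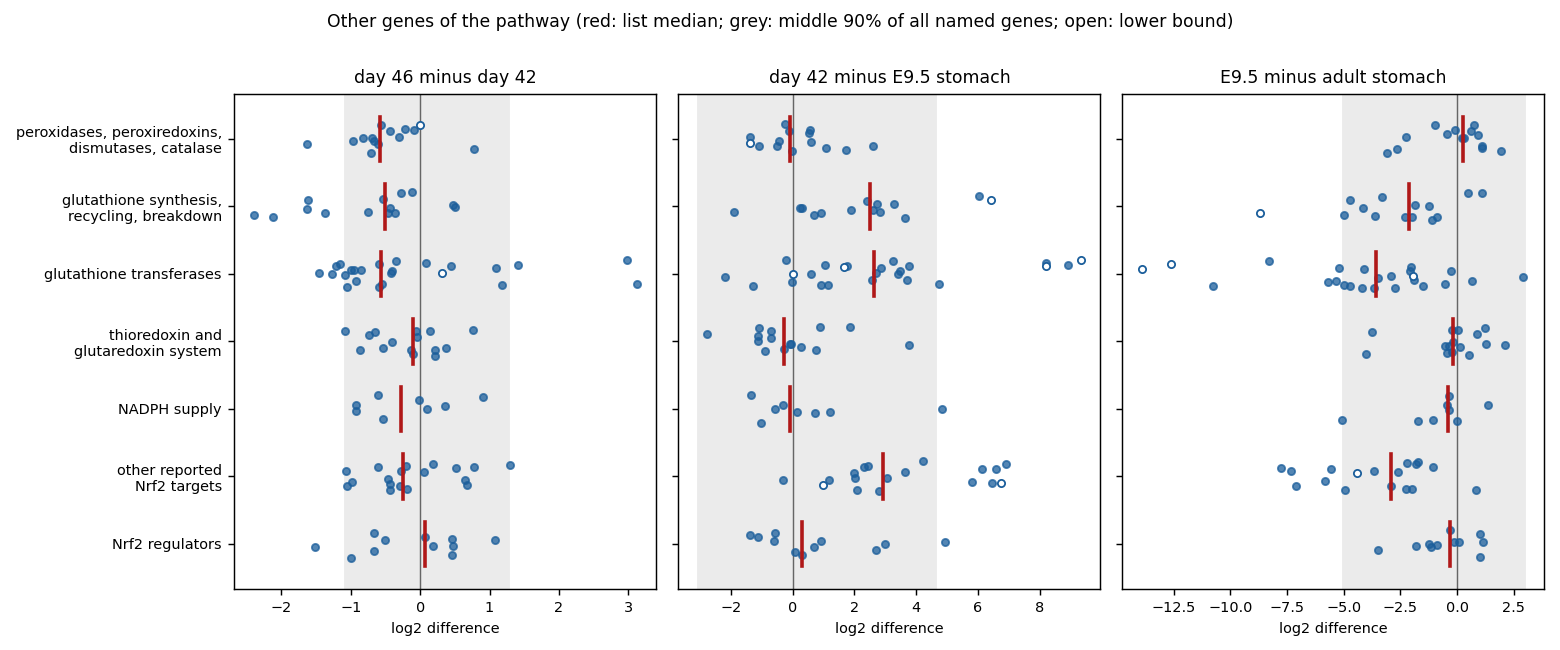
Log2 differences of the genes of 7 related lists in 3 comparisons, 1 point per gene, with the list median in red and the middle 90% of all named genes in grey; open points are lower bounds, and the horizontal axes differ between panels. The glutathione transferases and the other reported Nrf2 targets lie mostly right of 0 in day 42 minus E9.5 (medians 2.65 and 2.92) and left of 0 in E9.5 minus adult stomach (-3.57 and -2.91).

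The adult organs, which shared a slide, differed among themselves as well. Intestine set against stomach had 2 of the 10 genes at least 2-fold higher (Srxn1 and Gclm), where 17.9% of 14997 genes were, and 4 lower (Nqo1, Hmox1, Gpx1 and Slc7a11), where 19.2% were. Gpx1 there (-1.11) falls to -0.99 under median centring, and Gpx2 (-0.92) passes 2-fold with quantile normalization (-1.05). Lung had 2 higher (Gpx3, 5.97-fold, and Gclc), where 18.0% of 14704 genes were, and 7 lower, where 21.8% were, led by Nqo1 (138-fold) and Gpx2 (12-fold). With median centring the middle gene of all lies at -0.32 there. Gclc (0.91 with median centring), Gpx1 (-0.43 with quantile normalization) and Txnrd1 (-0.85 with quantile normalization) fall under 2-fold in this comparison, and Gclm (-0.90) passes it with median centring (-1.08) and with quantile normalization (-1.03). The third Slc7a11 probe was at least 3.78-fold higher in lung, against the first. In lung 7 of 8 NADPH suppliers were also at least 2-fold lower than in stomach. Esophagus minus stomach gave none higher, where 14.0% of 14858 genes were, and 2 lower (Nqo1, 11.5-fold, and Slc7a11, 4.65-fold), where 15.6% were. With median centring 5 were lower, where 2562 of 14858 genes were, since Gclc (-1.08), Txnrd1 (-1.03) and Gpx1 (-1.01) then pass 2-fold. Hmox1 in esophagus and stomach differed by -0.05 and Gpx2 by -0.40, both below the SD between probes of 0.48.

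The 10 genes did not share one profile. As a measure of likeness, each profile over the 7 arrays was centred on its own mean and the root mean square (RMS) difference was taken, in log2 units. The closest pairs among the members were Gpx1 with Gclc (0.79), Gpx3 with Gclc (0.84), and Gpx1 with Txnrd1 and Gclm with Srxn1 (0.87 each). The farthest were Gpx2 with Slc7a11 (3.44) and Gpx2 with Txnrd1 (3.33). Among 13407 genes above background on at least 5 arrays, the profile nearest to Nqo1 was that of Ptgr1 (0.73), another reported Nrf2 target, which read 2.09 at day 46, 3.16 at day 42, 1.08 at E9.5 and 6.64 in stomach. Elovl7 (1.02) and Mug2 (1.08) came next. Nearest to Hmox1 were Col16a1 (0.47), the aldo-keto reductase Akr1b8 (0.52), also on the Nrf2 list, and Dnase1l2 (0.62). Nearest to Gpx2 were Ccl11 (0.92), S100b (1.27) and Il17rc (1.28), none of which reached as low as Gpx2 at day 46 relative to its own mean. At E9.5 Ccl11 (-8.65) lay below the lowest above-background signal of that array (-6.435), so its low point there is background. Nearest to Srxn1 were Lect2 (0.30), Slc26a2 (0.37) and Plin3 (0.40), all with intestine on top, and nearest to Gclm were Cyp4a31 (0.19), Hhat (0.28) and Ubxn2a (0.31). Nearest to Gpx3 were Azin2 (0.40), Dzank1 (0.41) and Vcam1 (0.43), to Txnrd1 Vkorc1l1 (0.22), Tmem167 (0.25) and Lsm1 (0.27), to Gclc Arrb1 (0.20), Olfr655 (0.25) and Kitl (0.25), and to Gpx1 Ndufaf3, G6pc3 and Pard6a (0.18 each). Olfr655 lay below the array's lowest above-background signal at day 42 (-5.66 against -5.567) and in esophagus (-6.32 against -6.116). The first Slc7a11 probe, with 3 of its 7 readings not above background, lay nearest to Lmo1 (0.65), Rhpn1 (0.76) and Bckdhb (0.79). Steady genes find near neighbours easily, since the median RMS distance of all candidates was 0.96 for Gpx1 and 3.08 for Gpx2.

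**Figure D4:**
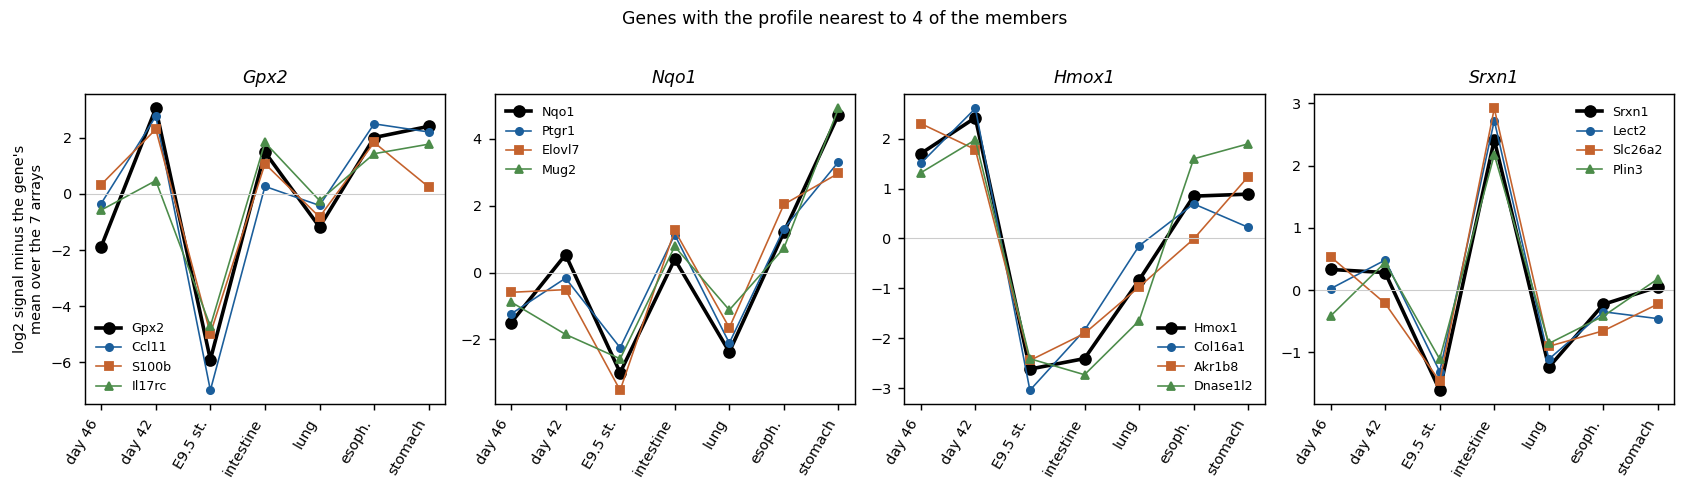
Profiles of Gpx2, Nqo1, Hmox1 and Srxn1 (black) over the 7 arrays with the 3 genes nearest to each, as log2 signal minus the gene's own mean, 1 array per point; vertical axes differ between panels. Ptgr1 follows Nqo1 at an RMS distance of 0.73 and Lect2 follows Srxn1 at 0.30, while the genes nearest to Gpx2 stay above it at day 46.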

How the data were processed

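Gene expression was measured as Cy3 intensity on 7 one-colour Agilent arrays, 1 per group. Per the file headers, the deposited scanner files hold each spot's background-subtracted intensity with flags for outliers and signal well above background, extracted with Feature Extraction 10.7.3.1 (both ES-derived samples) or 10.5.1.1 (the remaining 5 arrays); the submitters' processing notes name version 10.5. The authors also deposited a value table in log2 units, per the labels shifted to the 75th percentile. Its 41265 values per array had medians of -2.92 (day 46), -3.33 (day 42), -3.43 (E9.5), -2.98 (intestine), -2.68 (lung), -2.75 (esophagus) and -2.86 (stomach), and it correlated with the scanner values at 0.9991 or above, which settles scale and direction.

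Control and outlier spots were left out, spots of a probe were averaged on the log2 scale, and the 75th percentile of each array was subtracted. A probe was above background where a share of 0.5 or more of its spots carried the flag. A RefSeq table named 24375 of 41174 probes through their accession and 57 through a symbol, leaving 16742 without a name. The probe with the highest mean stood for its gene. A gene above background on 1 array of a comparison gave a bound against the higher of that array's lowest above-background signal and its own. With 1 array per group no test was run; differences of at least 2-fold were counted and set beside the SD between probes of one gene. Alternatives were median centring, quantile normalization, the deposited table, normexp (limma 3.58.1, offset 50), no background filter, the mean over probes and a 4-fold threshold. Computations used Python 3.11.15 and R 4.3.3. The members and the lists of related genes were chosen with earlier results of these data known. Named were all members, the 4 genes of each list with the largest difference in a comparison, all Nrf2 regulators and the 3 nearest profiles per member.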

Additional observations from a re-analysis of the deposited data

How the results depend on the processing

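Over the 8 comparisons and 6 alternatives that give each member a value, 460 of 480 member differences moved by less than the SD between probes. None that was at least 2-fold apart changed sign. Of the 20 that moved further, 15 belonged to Slc7a11, whose day 42 minus E9.5 difference was -0.96 by its first probe and 1.31 as a mean over probes. Many of the 480 had no room to move, so the total is no test of robustness. Genes above background on every array cannot change without the filter, nor genes with 1 probe under the mean over probes. The deposited table has the same scaling, and median centring shifts the members of a comparison together. Nqo1 moved 3 times with normexp, to 2.33 (day 42 minus E9.5), -6.46 (E9.5 minus stomach) and -6.06 (lung minus stomach), and the cause was not tested. The count of members at least 2-fold apart in esophagus against stomach was 5 with median centring (Gclc, Txnrd1 and Gpx1 added), beside 2. Of 14858 named genes 1900 were then higher and 2562 lower, beside 2084 and 2313. At a 4-fold threshold the count was 3 between day 42 and stomach (5 at 2-fold), 4 between E9.5 and stomach (7) and 4 between lung and stomach (9). Of all named genes, 1095 were at least 4-fold higher and 1527 lower of 14819 between day 42 and stomach. It was 1736 and 2738 of 15090 between E9.5 and stomach, and 1299 and 1319 of 14704 between lung and stomach. No paired analysis was possible because each group holds 1 array, and for the same reason no replicate could be left out. Slc7a11 is limited by signal near background.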
